A study of Mus musculus with 20 samples.

Results

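The synaptonemal complex is the protein ladder that joins homologous chromosomes along their lengths during meiotic prophase. It is described here through 6 genes that encode its structural parts: Sycp2, Sycp3, Sycp1, Syce1, Syce2 and Tex12. They were taken by symbol as known parts of the complex, when earlier results of these data were already known. All 6 were among the 23235 genes of the expression table, and all 6 passed the filter on low values that left 12956 genes for testing.

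Sycp2 and Sycp3 encode the lateral elements, the rails to which the chromatin loops of each homolog are anchored. Sycp1 encodes the transverse filament, which spans the space between the rails, and Syce1, Syce2 and Tex12 encode central element proteins that hold the filaments together in the midline. The complex is complete in pachytene, when crossovers mature, comes apart in diplotene, and is gone from the chromosomes by the second meiotic division.

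RNA was measured in spermatocytes sorted from testes of adult C57BL/6 mice that were either WT or Cxxc1-null. Cxxc1 encodes the CXXC finger protein that binds unmethylated CpG and brings the SETD1 methyltransferases to promoters, where histone H3 lysine 4 is trimethylated. The 6 groups were WT pachytene, Cxxc1-null pachytene, WT diplotene, Cxxc1-null diplotene, WT meiosis II and Cxxc1-null meiosis II, each with 2 libraries of 500 cells amplified by Smart-seq2 from oligo-dT priming. The series' title ties the study to H3K4 trimethylation and meiotic crossovers, and the question for these genes was whether their RNA differed between the genotypes and how it moved between the stages. The labels used here name neither the mutant allele nor any driver of the deletion, and do not say whether 2 libraries of a group came from different mice, so the p-values below measure only the spread between these libraries.

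Values are FPKM, fragments per kilobase of transcript normalized to the mapped fragments of the library, a level corrected for gene length. Differences are on the log2(FPKM + 1) scale from limma, with ± as the standard error and p-values adjusted over all 12956 genes by the Benjamini-Hochberg method. A gene is said to have risen or fallen where the adjusted p was under 0.05. Group levels are means ± SD of 2 libraries.

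The libraries had 9838 to 11624 genes at 1 FPKM or more. Their FPKM summed over the table ran from 689500 to 926600, with 918600 and 745000 in the WT pachytene pair, and was not scaled further. Replicate libraries correlated at 0.957 to 0.976 across genes, the WT pachytene pair being the least alike. Cxxc1, the targeted gene, stood at 11.7 to 17.6 FPKM in the 6 WT libraries, at 8.29 to 9.57 in the Cxxc1-null pachytene and diplotene libraries and at 2.02 to 3.10 in the Cxxc1-null meiosis II libraries. No null library overlapped a WT library of its stage. Cxxc1 fell by 1.08 ± 0.15 averaged over stages (limma adjusted p = 0.0017), but at single stages only in meiosis II (-1.96 ± 0.25, limma adjusted p = 0.0024). Levels of marker genes of other cells differed between the stages. Summed FPKM of 15 Sertoli cell genes was 50.7 to 72.5 in pachytene, 12.6 to 19.5 in diplotene and 324.2 to 435.2 in meiosis II, where Clu had 166.3 to 227.9 and Amh at most 0.0982. That of 14 spermatogonial and early meiotic genes was 274.1 to 513.2 in pachytene, 61.8 to 89.6 in diplotene and 26.9 to 42.4 in meiosis II. That of 20 spermatid genes was 2007 to 2808 in pachytene and 994.8 to 1838 in diplotene. In meiosis II it was 9475 to 12480 in WT and 3945 to 6994 in Cxxc1-null cells. From diplotene to meiosis II 18 of the 20 rose in each genotype, where 26.1% of all tested genes rose in WT and 25.3% in Cxxc1-null cells. Taken singly, 0 of the 20 were called between the genotypes in meiosis II by limma, where 10.5% of all tested genes were. Averaged over stages 5 of the 20 were called higher in Cxxc1-null cells and 1 lower, against 11.5% and 5.13% of all tested genes. Of 15 pachytene marker genes 0 were called higher and 4 lower in this average, against the same shares. The 4 were Tdrd6, Pou5f2, Hist1h1t and Piwil1. The part of the marker genes in the results was not tested.

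The promoters of 4 of the genes are shown because CXXC1 is a CpG-binding protein and because shared letters can be seen in them. Each is the 250 bases upstream of a RefSeq transcript start in GRCm38.p6, written 5′ to 3′ on the strand of the gene. Capitals mark the E-box CACGTG in Sycp1 (chr3:102936101-102936350, minus strand), Sycp3 (chr10:88459337-88459586, plus strand) and Tex12 (chr9:50561269-50561518, minus strand), and GCGCATGC, a core of the NRF1 motif, matched on both strands with overlap in Syce1 (chr7:140787855-140788104, minus strand).
Sycp1: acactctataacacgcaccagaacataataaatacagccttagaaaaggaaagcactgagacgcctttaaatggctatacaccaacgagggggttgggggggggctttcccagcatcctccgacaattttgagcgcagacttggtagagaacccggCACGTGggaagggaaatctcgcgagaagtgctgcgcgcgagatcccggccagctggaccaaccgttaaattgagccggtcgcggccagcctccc
Sycp3: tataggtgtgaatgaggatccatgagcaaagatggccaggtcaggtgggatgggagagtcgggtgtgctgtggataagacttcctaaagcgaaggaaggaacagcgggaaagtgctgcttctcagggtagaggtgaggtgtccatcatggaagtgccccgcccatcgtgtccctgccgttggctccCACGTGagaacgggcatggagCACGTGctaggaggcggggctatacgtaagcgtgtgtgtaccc
Tex12: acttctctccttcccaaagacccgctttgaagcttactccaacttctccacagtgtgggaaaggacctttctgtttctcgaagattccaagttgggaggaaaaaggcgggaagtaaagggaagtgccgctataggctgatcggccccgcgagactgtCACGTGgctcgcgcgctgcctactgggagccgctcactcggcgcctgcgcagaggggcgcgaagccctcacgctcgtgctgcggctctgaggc
Syce1: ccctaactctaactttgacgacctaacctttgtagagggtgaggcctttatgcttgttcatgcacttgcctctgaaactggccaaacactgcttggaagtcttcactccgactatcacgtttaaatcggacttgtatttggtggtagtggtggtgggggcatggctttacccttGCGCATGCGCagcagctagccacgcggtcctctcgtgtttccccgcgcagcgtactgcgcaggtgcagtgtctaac

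All 6 genes had a promoter in the RefSeq table, with 7 windows in all because Syce2 has a pair of starts. The E-box was present in 4 of the 6 genes. It began 94 bases before the start in Sycp1, 93 in Tex12 and 88 in the second window of Syce2, and Sycp3 held it 64 and 43 bases before the start. Of 32536 distinct windows of the same length, 6.04% held it and 0.433% held 2 or more. The NRF1 core matched 76 and 74 bases before the start in Syce1, once on each strand, and in no other of these windows, against 2.27% of all windows with 1 match or more. The E2F core GGCGGGAA was found in Tex12 and in the second window of Syce2 (1.87% of all windows), and the GC box GGGCGG in Sycp2, Sycp3 and Syce2 (33.0%). CCAAT (33.8% of all windows) and TATAAA (12.3%) were in no window of the 6 genes. All motifs were searched on both strands, and a match describes letters, not a bound site. The windows held 7 to 24 CpG pairs, fewest in Sycp2 and most in the second window of Syce2, where the median of all windows was 6.

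RNA of 5 of the 6 genes was highest in pachytene and lower afterwards, whereas Syce1 stayed high through meiosis II. In WT pachytene cells Sycp3 was the most abundant of the set at 1661 ± 1071 FPKM, which only 0.540% of tested genes exceeded, and Syce2 the least at 133.0 ± 44.0 FPKM. The order in WT pachytene was Sycp3, Tex12, Syce1, Sycp1, Sycp2 and Syce2, in which the libraries of each of the first 3 genes overlapped those of the next. In diplotene and meiosis II of both genotypes Syce1 was first and Sycp3 was next, without overlap. Tex12, at 543.1 FPKM in Cxxc1-null pachytene, was last of the 6 in meiosis II of both genotypes.

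**Figure D1:**
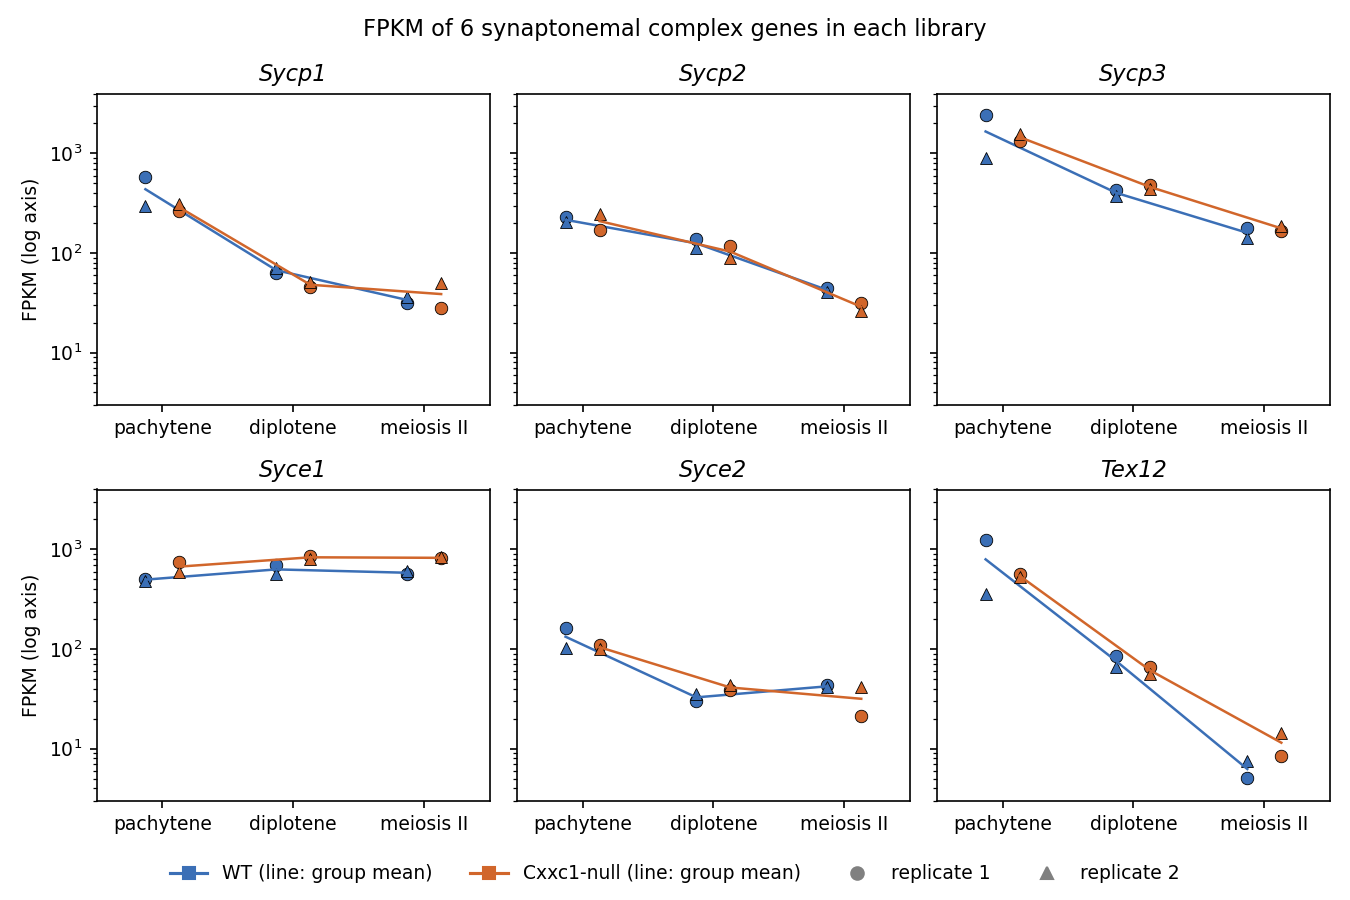
FPKM on a log axis of each of the 6 genes in the 12 libraries, by stage and genotype, 1 point per library. Sycp3 ranged from 140.3 to 2419 FPKM and Tex12 from 5.04 to 1230, whereas Syce1 kept within 486.5 to 865.9.

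Sycp3, the lateral element protein that forms the core of the chromosome axis, had 2419 and 903.9 FPKM in the WT pachytene libraries and 1342 and 1575 in the Cxxc1-null pachytene libraries. In diplotene it had 425.5 and 377.0 in WT and 477.1 and 441.6 in Cxxc1-null, and in meiosis II 178.9 and 140.3 in WT and 166.8 and 187.1 in Cxxc1-null. The stages did not overlap in either genotype, and the highest and lowest pachytene values were both WT. In WT it fell by 1.88 ± 0.37 from pachytene to diplotene (limma adjusted p = 0.0065) and by 1.33 ± 0.37 from diplotene to meiosis II (limma adjusted p = 0.014). In Cxxc1-null cells the differences were -1.66 ± 0.37 and -1.37 ± 0.37 (limma adjusted p = 0.012 and 0.013). From pachytene to meiosis II the mean FPKM was 10.4-fold lower in WT and 8.24-fold lower in Cxxc1-null cells, but 5.66-fold lower in WT without WT pachytene replicate 1. Without WT pachytene replicate 1 the first WT difference was -1.17, and without replicate 2 it was -2.59, and it was called both times. The second WT call was lost without WT diplotene replicate 1 or WT meiosis II replicate 2, the first Cxxc1-null call without Cxxc1-null pachytene replicate 2 or diplotene replicate 1, and the second without Cxxc1-null diplotene replicate 1 or meiosis II replicate 1 (limma adjusted p = 0.051 to 0.089).

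Sycp2, the other lateral element protein, which binds SYCP3, had 228.4 and 202.9 FPKM in WT pachytene and 171.8 and 246.6 in Cxxc1-null pachytene. In diplotene it had 137.2 and 112.9 in WT and 118.2 and 88.2 in Cxxc1-null, and in meiosis II 44.2 and 40.9 in WT and 31.3 and 26.4 in Cxxc1-null. The genotypes overlapped in pachytene and diplotene but not in meiosis II, where both null libraries were lower. From pachytene to diplotene it fell by 0.79 ± 0.24 in WT (limma adjusted p = 0.034) and by 1.00 ± 0.24 in Cxxc1-null cells (limma adjusted p = 0.014). Its larger steps came after diplotene, with differences of -1.53 ± 0.24 in WT (limma adjusted p = 0.00049) and -1.79 ± 0.24 in Cxxc1-null cells (limma adjusted p = 0.00027). The first WT fall was not called without WT pachytene replicate 1 (-0.70, limma adjusted p = 0.14), WT diplotene replicate 1 (-0.93, 0.070) or WT diplotene replicate 2 (-0.65, 0.19), or after scaling to a common median (-0.58, 0.14). The first Cxxc1-null fall was not called without Cxxc1-null pachytene replicate 2 (-0.75, limma adjusted p = 0.12) or Cxxc1-null diplotene replicate 2 (-0.80, 0.084).

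Sycp1, the transverse filament, had 579.6 and 294.3 FPKM in WT pachytene and 264.0 and 310.0 in Cxxc1-null pachytene. In diplotene it had 63.3 and 71.1 in WT and 45.4 and 50.7 in Cxxc1-null, and in meiosis II 31.8 and 35.8 in WT and 27.9 and 49.5 in Cxxc1-null. The pachytene libraries stood apart from all others, and the null diplotene and null meiosis II libraries overlapped. From pachytene to diplotene Sycp1 fell by 2.60 ± 0.33 in WT (limma adjusted p = 0.0011) and by 2.55 ± 0.33 in Cxxc1-null cells (limma adjusted p = 0.0022), 6.50-fold and 5.98-fold in mean FPKM. Only 0.556% of tested genes had a lower WT difference. After diplotene it fell by 0.97 ± 0.33 in WT (limma adjusted p = 0.036), a call lost when any 1 of the 4 libraries was left out (limma adjusted p = 0.087 to 0.15). The Cxxc1-null difference was -0.36 ± 0.33 (limma adjusted p = 0.43), and the difference between the genotypes in this step was 0.61 ± 0.47 (limma interaction adjusted p = 0.80).

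Tex12, which with SYCE2 builds the filaments of the central element, had the widest range of the 6 genes. It had 1230 and 360.3 FPKM in WT pachytene and 563.1 and 523.2 in Cxxc1-null pachytene, then 85.1 and 65.6 in WT diplotene and 65.7 and 55.8 in Cxxc1-null diplotene. In meiosis II it had 5.04 and 7.44 in WT and 8.42 and 14.5 in Cxxc1-null. No stage overlapped another, and in meiosis II both null libraries were above both WT libraries. In WT the difference was -3.14 ± 0.48 from pachytene to diplotene (limma adjusted p = 0.0023) and -3.41 ± 0.48 from diplotene to meiosis II (limma adjusted p = 0.00026), where it had the fifteenth lowest difference of all tested genes. In Cxxc1-null cells the differences were -3.14 ± 0.48 and -2.35 ± 0.48 (limma adjusted p = 0.0039 and 0.0028), so Tex12 fell in each step. Mean FPKM from pachytene to meiosis II was 127.5-fold lower in WT (57.8-fold without WT pachytene replicate 1, 197.2-fold without replicate 2) and 47.4-fold lower in Cxxc1-null cells, and the difference between the genotypes over this span was 1.05 ± 0.68 (limma interaction adjusted p = 0.55). The first WT difference was -2.25 without WT pachytene replicate 1 and -4.02 without replicate 2, and was called both times.

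Syce2, the partner of TEX12, had 164.0 and 101.9 FPKM in WT pachytene and 109.5 and 99.3 in Cxxc1-null pachytene. In diplotene it had 30.3 and 35.1 in WT and 39.0 and 43.2 in Cxxc1-null, and in meiosis II 43.2 and 41.2 in WT and 21.5 and 41.8 in Cxxc1-null. All libraries after pachytene lay between 21.5 and 43.2. From pachytene to diplotene it fell, with differences of -1.95 ± 0.31 in WT (limma adjusted p = 0.0027) and -1.33 ± 0.31 in Cxxc1-null cells (limma adjusted p = 0.013). The Cxxc1-null call was lost without either pachytene library or without diplotene replicate 1 (limma adjusted p = 0.059 to 0.078). From diplotene to meiosis II the differences were 0.36 ± 0.31 in WT and -0.44 ± 0.31 in Cxxc1-null cells (limma adjusted p = 0.38 and 0.29). Without Cxxc1-null meiosis II replicate 2, the higher of the pair, the Cxxc1-null difference was -0.90 and was called (limma adjusted p = 0.046).

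Syce1, the central element protein that binds the ends of the SYCP1 filaments, had 508.6 and 486.5 FPKM in WT pachytene and 751.1 and 593.7 in Cxxc1-null pachytene. In diplotene it had 692.1 and 569.1 in WT and 865.9 and 802.1 in Cxxc1-null, and in meiosis II 560.5 and 606.1 in WT and 811.8 and 835.8 in Cxxc1-null. The null libraries were above both WT libraries of their stage at all 3 stages. No stage step was called: from pachytene to diplotene the differences were 0.33 ± 0.19 in WT and 0.32 ± 0.19 in Cxxc1-null cells (limma adjusted p = 0.23 for both), and after quantile normalization the Cxxc1-null difference was 0.61 ± 0.19 and was called (limma adjusted p = 0.038). From diplotene to meiosis II they were -0.11 ± 0.19 and -0.02 ± 0.19 (limma adjusted p = 0.69 and 0.96).

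Counted over the set, 5 of the 6 genes fell from pachytene to diplotene in WT, where 17.4% of all tested genes did, and the median difference was -1.92 against -0.11 over all genes. In Cxxc1-null cells 5 fell, again against 17.4%, with a median of -1.49 against -0.09. From diplotene to meiosis II, 4 fell in WT (18.9% of all genes) and 3 in Cxxc1-null cells (18.8%), and consecutive steps share their diplotene libraries. Sycp2, Sycp3 and Tex12 fell in all 4 steps, as did 3.38% of tested genes. When the WT pachytene and diplotene libraries were fitted alone, 0 of the 6 were called (limma adjusted p = 0.063 to 0.11 for the 5), but only 3 of all 12956 genes were called in that fit. After scaling the libraries to a common median the calls over all genes from pachytene to diplotene in WT went from 1177 higher and 2254 lower to 2097 and 1499, and those from diplotene to meiosis II in WT from 3382 and 2453 to 2737 and 3950. In RNA from sorted cells, fewer cells of a type and less RNA per cell cannot be told apart. Of the early meiotic marker genes 8 of 12 tested fell from pachytene to diplotene in each genotype. Among them were Sohlh2 (-3.24 ± 0.27 in WT) and Stra8 (-1.93 ± 0.20 in WT). Of 14 such genes, 10 were under 1 FPKM in both diplotene libraries of each genotype, against 3 in WT and 4 in Cxxc1-null pachytene. Genes could thus pass the filter through pachytene alone, so a fall was partly built into this count. WT pachytene replicate 1 had the highest summed level of these markers, 513.2 FPKM against 282.3 in replicate 2. Pachytene marker genes went the other way in this step. Of 15 tested, 7 rose and 0 fell in WT, and 6 rose and 0 fell in Cxxc1-null cells, where 9.08% and 11.9% of all genes rose. In the second step all 10 tested Sertoli genes rose in each genotype, where 26.1% of all tested genes rose in WT and 25.3% in Cxxc1-null cells. Of 15 Sertoli genes, 9 were under 1 FPKM in both WT diplotene libraries and 3 in both WT meiosis II libraries. In Cxxc1-null cells 10 and 5 were. Genes could thus pass the filter through meiosis II alone, so a rise was partly built into this count.

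**Figure D2:**
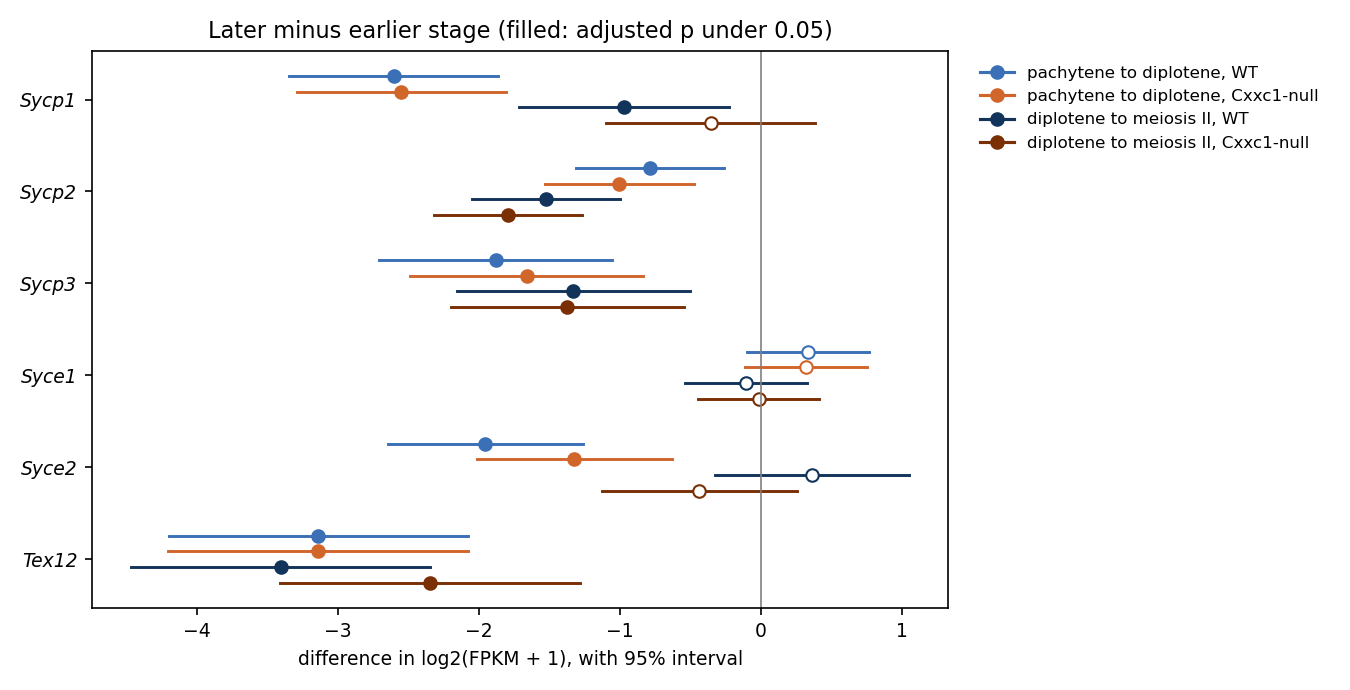
Stage differences of the 6 genes in log2(FPKM + 1) with 95% intervals, for both steps and both genotypes. Tex12 lies farthest below 0 in every step and the intervals of Syce1 include 0 in every step.

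The proportions of the 6 genes in their summed FPKM changed between the stages. Syce1 made up 9.91% to 23.5% of the summed FPKM of the 6 genes in the pachytene libraries, 46.2% to 54.1% in diplotene and 64.9% to 76.0% in meiosis II. Sycp3 went from 38.5% to 47.2%, through 29.6% to 30.6%, to 15.6% to 20.7%, and Tex12 from 15.3% to 24.0%, through 3.77% to 5.94%, to 0.583% to 1.26%. The sum itself was 5130 and 2350 FPKM in WT pachytene, 3202 and 3348 in Cxxc1-null pachytene, 1231 to 1611 in diplotene and 863.6 to 1155 in meiosis II. WT pachytene replicate 1 thus held the highest total, and its replicate lay below both null libraries. Levels of different genes are compared here per length, as FPKM.

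**Figure D3:**
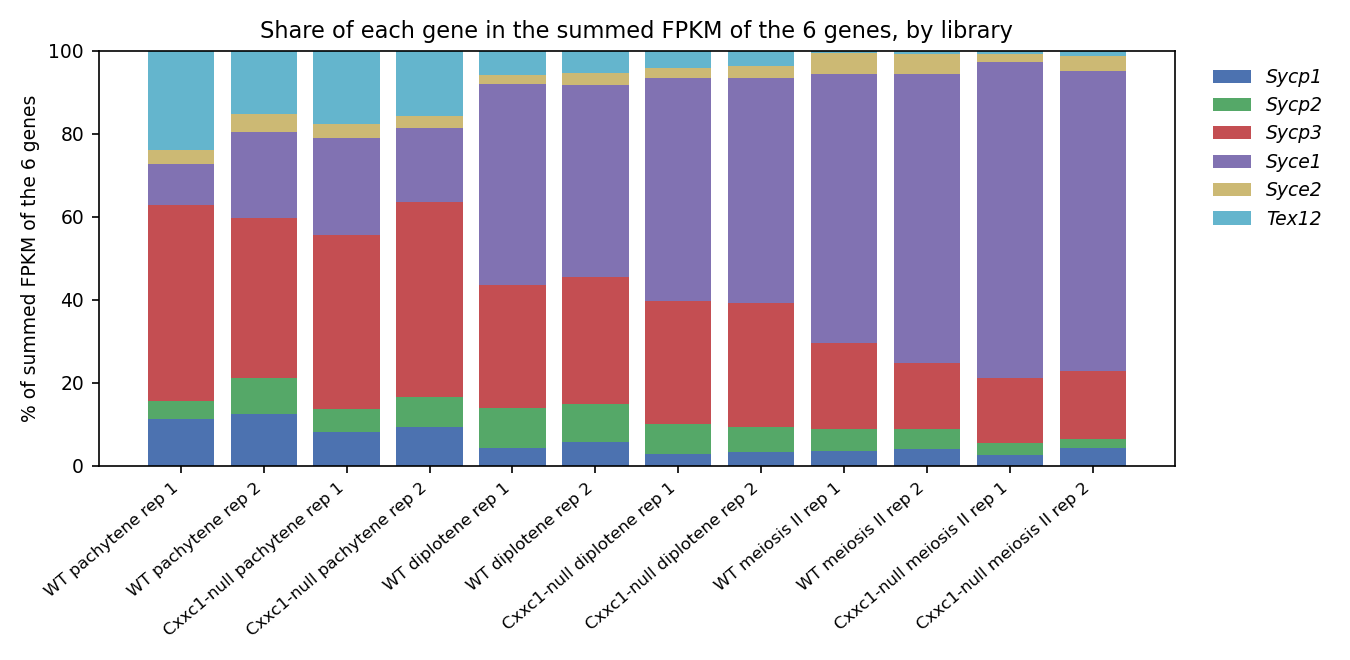
Share of each of the 6 genes in their summed FPKM, in percent, for each of the 12 libraries. Syce1 takes 9.91% to 23.5% in pachytene libraries and 64.9% to 76.0% in meiosis II libraries.

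Between the genotypes no gene of the set passed the test at a single stage. In pachytene 0 of 6 were called by limma, where 0.355% of all tested genes were. An unadjusted p under 0.05 was found for 0 of the 6 and for 1388 of all 12956 genes. The differences, Cxxc1-null minus WT, ran from -0.53 ± 0.33 for Sycp1 (limma adjusted p = 0.63) to 0.42 ± 0.19 for Syce1 (limma adjusted p = 0.47). Their 95% intervals were wide, from -1.27 to 0.21 for Sycp1, -0.85 to 0.80 for Sycp3 and -1.36 to 0.77 for Tex12, so that a log2 difference of -1 lay inside the intervals of Sycp1 and Tex12. Leaving out WT pachytene replicate 1 turned the values of Sycp2, Sycp3, Syce2 and Tex12 to 0.02, 0.69, 0.03 and 0.59, none of them called.

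In diplotene 0 of 6 were called by limma (0.787% of all genes). An unadjusted p under 0.05 was found for 0 of the 6 and for 1747 of all 12956 genes. Sycp1 was lower in both null libraries (-0.48 ± 0.33), and Syce1 (0.41 ± 0.19), Syce2 (0.32 ± 0.31) and Sycp3 (0.20 ± 0.37) were higher in both, while Sycp2 (-0.28 ± 0.24) and Tex12 (-0.30 ± 0.48) overlapped. Among all tested genes 30.4% were higher and 15.2% lower without overlap at this stage, and the limma adjusted p of the 6 was 0.40 or more.

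In meiosis II 0 of 6 were called, where 10.5% of all tested genes were. An unadjusted p under 0.05 was found for 2 of the 6 and for 3385 of all 12956 genes. The 2 were Syce1, at 0.50 ± 0.19 (limma adjusted p = 0.13), and Sycp2, at -0.55 ± 0.24 (limma adjusted p = 0.17). The value of Tex12 was 0.76 ± 0.48 (limma adjusted p = 0.35), from low levels in both genotypes. Il18, which overlaps Tex12 in RefSeq, had 1.19 and 1.11 FPKM in WT and 3.89 and 4.34 in Cxxc1-null meiosis II. In diplotene, where the Tex12 libraries overlapped, Il18 had 2.26 and 0.998 in WT and 2.59 and 4.35 in Cxxc1-null. The part of Il18 reads in the Tex12 values was not tested. Sycp1 (0.14 ± 0.33), Sycp3 (0.16 ± 0.37) and Syce2 (-0.48 ± 0.31) overlapped between the genotypes. Over all tested genes 30.1% were higher and 26.4% lower without overlap.

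Averaged over the 3 stages, which uses the same 12 libraries, Syce1 was the 1 gene of the 6 that was called: it rose by 0.44 ± 0.11 in Cxxc1-null cells (limma adjusted p = 0.025, 95% interval 0.20 to 0.69), where 11.5% of all tested genes rose. In mean FPKM it was 1.35-fold higher in pachytene, 1.32-fold in diplotene and 1.41-fold in meiosis II, and it was higher in 6 of 6 null libraries than in both WT libraries of the stage. The same holds for 8.24% of tested genes. The call was lost in 11 of 23 alternatives, with limma adjusted p from 0.017 to 0.26 over all of them and the difference between 0.34 and 0.46 in those 11. Among them were the fits without Cxxc1-null pachytene replicate 1 (0.39), WT diplotene replicate 2 (0.40), Cxxc1-null diplotene replicate 1 (0.43) or 2 (0.46), WT meiosis II replicate 1 (0.43) or 2 (0.46), and Cxxc1-null meiosis II replicate 2 (0.44). It was also lost when the same-numbered libraries of a genotype were joined across stages as a replicate block (0.44, limma adjusted p = 0.26), and after quantile normalization (0.34, 0.062) or scaling to a common median (0.40, 0.070). The other averaged differences were -0.30 ± 0.14 for Sycp2 (limma adjusted p = 0.16), -0.29 ± 0.19 for Sycp1 (0.33), -0.15 ± 0.18 for Syce2 (0.59), 0.11 ± 0.21 for Sycp3 (0.77) and 0.06 ± 0.28 for Tex12 (0.92).

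**Figure D4:**
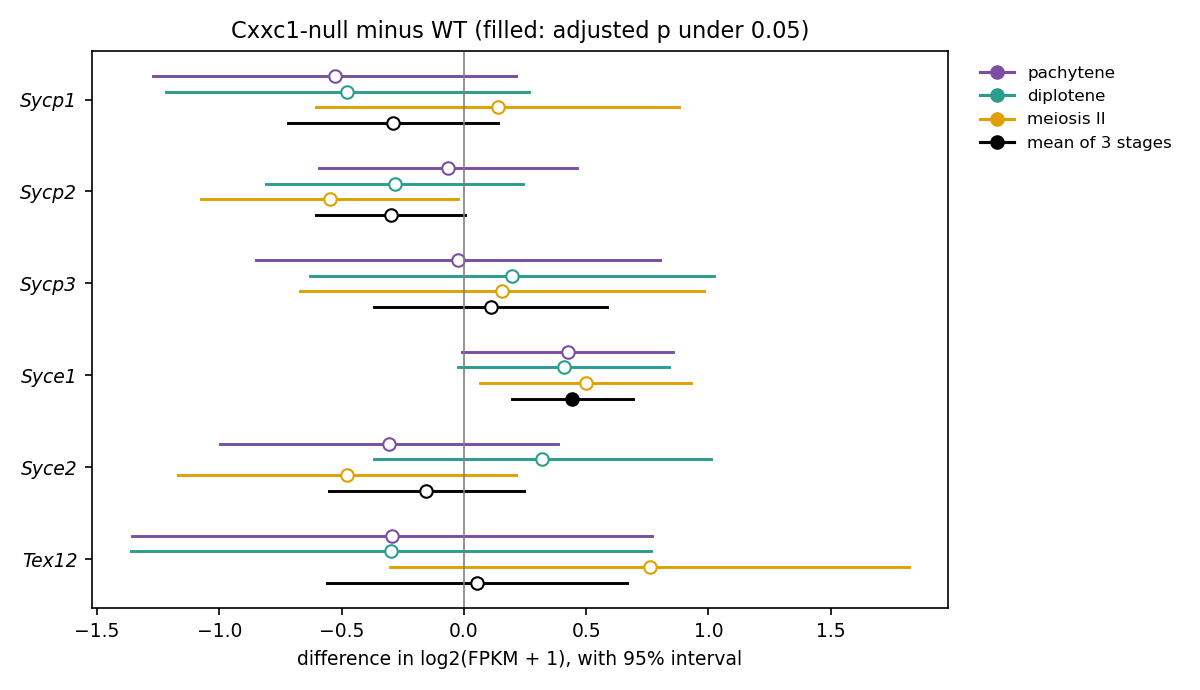
Genotype differences of the 6 genes, Cxxc1-null minus WT, in log2(FPKM + 1) with 95% intervals, at each stage and averaged over stages. Syce1 lies between 0.41 and 0.50 at all 3 stages, and the averaged interval of Syce1 alone leaves out 0.

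The genotype difference was not shown to vary with the stage for any of the 6 genes. In the joint limma interaction test over the 3 stages 0 of 6 were called, against 0.054% of all tested genes. An unadjusted p under 0.05 was found for 0 of the 6 and for 1136 of all 12956 genes. The lowest adjusted p of this joint test was 0.81, for Syce2, and the lowest for a single pair of stages was 0.55, for Tex12 between pachytene and meiosis II.

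Other genes of the complex and of synapsis behaved in part like the set. Of 16 listed, 14 were tested, and from pachytene to diplotene 9 fell and 1 rose in each genotype, where 17.4% of all genes fell. In WT the first by p were Fkbp6, a chaperone on synapsed chromosome cores (-2.28 ± 0.21), 4930447C04Rik, whose RefSeq synonym Six6os1 is a central element protein (-2.96 ± 0.34), Dmc1, the meiotic recombinase (-2.56 ± 0.40), and Tex11 (-0.92 ± 0.14). In Cxxc1-null cells they were Fkbp6 (-2.15 ± 0.21), 4930447C04Rik (-3.14 ± 0.34), Tex11 (-0.88 ± 0.14) and Syce3 (-1.82 ± 0.36). Syce3, a further central element gene, had 884 ± 334 FPKM in WT pachytene and 244.5 ± 40.2 in WT diplotene. The gene that rose was 4930432K21Rik (1.13 ± 0.32 in WT, 1.32 ± 0.32 in Cxxc1-null), with a RefSeq synonym of Brme1, a partner of the meiotic recombination machinery.

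Between diplotene and meiosis II 6 of the 14 fell and 1 rose in each genotype, where 18.9% and 18.8% of all genes fell and 26.1% and 25.3% rose in WT and Cxxc1-null cells. Fkbp6 fell in both (-1.50 ± 0.21 in WT, -1.20 ± 0.21 in Cxxc1-null), and Tex11 rose by 0.65 ± 0.14 and 0.86 ± 0.14. Between the genotypes 0 of the 14 were called at any stage by limma, where 0.355%, 0.787% and 10.5% of all genes were in pachytene, diplotene and meiosis II. An unadjusted p under 0.05 was found at these stages for 0, 0 and 2 of the 14, and for 1388, 1747 and 3385 of all 12956 genes. Averaged over stages 1 of the 14 rose and 0 fell, where 11.5% of all genes rose and 5.13% fell. The gene that rose was Psmc3ip, a partner of DMC1, at 0.47 ± 0.11 (limma adjusted p = 0.021).

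Cohesins form the axis under the lateral elements. From pachytene to diplotene 3 of 11 tested fell in WT, Stag1 (-1.25 ± 0.21), Smc3 (-0.78 ± 0.23) and Rad21 (-0.84 ± 0.25), against 17.4% of all genes, and Nipbl rose (0.87 ± 0.19). In Cxxc1-null cells Stag1 fell (-1.21 ± 0.21) and Nipbl rose (0.72 ± 0.19). In the later step 4 of the 11 rose, from diplotene to meiosis II, in both genotypes, against 26.1% of all genes in WT and 25.3% in Cxxc1-null cells: Rec8, the meiotic kleisin (3.76 ± 0.42 in WT, 3.03 ± 0.42 in Cxxc1-null), Smc3 (2.43 ± 0.23, 2.12 ± 0.23), Stag2 (2.09 ± 0.30, 2.11 ± 0.30) and Rad21 (1.44 ± 0.25, 1.01 ± 0.25). In WT Stag1 (-0.96 ± 0.21) and Pds5b (-0.73 ± 0.23) fell in this step. Between the genotypes 1 of 11 was called in meiosis II, against 10.5% of all genes: Nipbl, the cohesin loader, fell by 0.96 ± 0.19 (limma adjusted p = 0.014). In pachytene and diplotene 0 of 11 were called, against 0.355% and 0.787% of all genes. An unadjusted p under 0.05 was found there for 0 and 2 of the 11, and for 1388 and 1747 of all 12956 genes. Averaged over stages 2 of 11 were called, against 16.7% of all genes: Nipbl fell by 0.51 ± 0.11 and Stag2 rose by 0.70 ± 0.17 (limma adjusted p = 0.013 and 0.023). Of 7 tested genes that tether telomeres to the nuclear envelope, 0 were called between the genotypes at any stage by limma, against 0.355%, 0.787% and 10.5% of all genes. In pachytene, diplotene and meiosis II 0, 0 and 2 of the 7 had an unadjusted p under 0.05, against 1388, 1747 and 3385 of all 12956 genes. Between diplotene and meiosis II 2 of the 7 fell in WT (18.9% of all genes) and 5 of the 7 in Cxxc1-null cells (18.8%). In the limma interaction for this step 0 of the 7 were called, against 0.054% of all genes. An unadjusted p under 0.05 was found for 1 of the 7 and for 1074 of all 12956 genes. The list as a whole was not tested. Cdk2, which sits on meiotic telomeres, fell from diplotene to meiosis II (-2.26 ± 0.21 in WT, -2.76 ± 0.21 in Cxxc1-null), as did Ccdc79 (-0.74 ± 0.24, -1.08 ± 0.24). Sun2, which links telomeres to the cytoskeleton, rose from pachytene to diplotene by 0.78 ± 0.20 in WT and 1.28 ± 0.20 in Cxxc1-null cells, and fell in Cxxc1-null cells from diplotene to meiosis II (-1.18 ± 0.20), as did Terf1 (-1.15 ± 0.33).

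The members were also compared with each other over the 12 libraries, as Pearson r of log2(FPKM + 1), which describes the stage pattern that all of them share libraries for. Sycp3 and Tex12 were closest at 0.985, and Sycp1 and Tex12 had 0.945. Syce1 had -0.349 to -0.535 with the other 5. The 3 most similar tested genes outside the set were Med10, Mrpl42 and Mrpl23 for Sycp1 (0.992 to 0.985), Mtf2, Zmym2 and Srsf11 for Sycp2 (0.994 to 0.993), and Psma2, Tmco1 and Hnrnpc for Sycp3 (0.994 to 0.993). For Tex12 they were Ccnh, Polr2g and Atp5g3 (0.996 to 0.994), for Syce2 Tbc1d8, Cisd2 and Syce3 (0.970 to 0.964), and for Syce1 Nit1, Nkd2 and Mlf1ip (0.965 to 0.939). The best match of Syce1 was thus the weakest of the 6.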

How the data were processed

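RNA was measured in 12 libraries, 2 for each of 6 groups taken from the labels' titles, and 8 ChIP libraries of the series were not analysed here. The authors deposited 1 table of FPKM values. TopHat2 2.1.1, Cufflinks 2.2.1 and the mm9 build are named per the submitters' processing notes, and their settings and the strand setting are not given in the sources used here. Reads from genes that overlap a member in RefSeq (Chpt1 at Sycp3, Gcdh at Syce2, Il18 at Tex12) or share its sequence (Sycp1-ps1) may therefore have been split uncertainly. Depth is unknown: at values under 0.3 FPKM only 15.3% to 22.7% of genes shared the commonest ratio between libraries, so no read counts were recovered.

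Genes reaching 1 FPKM in 2 or more libraries were kept, log2(FPKM + 1) was taken without further normalization, and limma 3.58.1 in R 4.3.3 fitted the 6 group means together with 6 residual degrees of freedom. The scripts were tested on simulated data. Each set of genotype, stage and interaction differences was tested with Benjamini-Hochberg adjustment over all tested genes. The alternatives were other pseudocounts, filters and scalings, separate fits, blocks by replicate number and leaving out each library. The members and lists were chosen with earlier results of these data known. All 6 members were named in every comparison, up to 4 called genes per other list by smallest p, and the 3 most correlated genes per member apart from RIKEN, Gm and LOC models and small RNAs. A result of 1 listed gene is not reported here.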

Additional observations from a re-analysis of the deposited data

How the results depend on the processing

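Of 792 values of 48 member results under the alternatives, 731 kept their direction and side of the threshold, 37 lost a call, 2 gained one (Syce1 after quantile normalization and Syce2 without Cxxc1-null meiosis II replicate 2, both in Cxxc1-null stage steps) and 22 changed sign, none of the last being called. Leaving out a library removes data; the cause of the other changes was not tested. Members called averaged over stages were 1 in the reported fit and 0 after quantile normalization (Syce1 0.34, limma adjusted p = 0.062), scaling to a common median (0.40, 0.070), without WT pachytene replicate 2 and Cxxc1-null diplotene replicate 2 together (0.45, 0.075), and 0 to 1 with each library left out. That call was lost without Cxxc1-null pachytene replicate 1, WT diplotene replicate 2, either Cxxc1-null diplotene library, either WT meiosis II library or Cxxc1-null meiosis II replicate 2 (limma adjusted p = 0.053 to 0.078). With each library left out, members called were 4 to 5 from pachytene to diplotene in WT, 2 to 3 from diplotene to meiosis II in WT, 2 to 4 and 2 to 4 for the same steps in Cxxc1-null cells. They were 0 in the separate fit of WT pachytene and diplotene. From diplotene to meiosis II the count was 2 without WT diplotene replicate 1 or WT meiosis II replicate 2 in WT, and without diplotene replicate 1 or meiosis II replicate 1 in Cxxc1-null cells. From pachytene to diplotene in Cxxc1-null cells it was 2 without pachytene replicate 2 and 3 without diplotene replicate 1.

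The labels do not say that a replicate number marks a shared animal or day. For that reason the numbers were not taken as pairs in the reported fit. Over 15 pairs of groups the correlation of same-numbered deviations ran from -0.253 to 0.42, with 11 above 0.1 and 1 under -0.1. Between the stages of 1 genotype it was positive throughout, at 0.17 to 0.314 in WT and 0.116 to 0.42 in Cxxc1-null. Same-numbered libraries were thus not shown to be independent, though the reported p-value averaged over stages treats them so. With the replicate number as a block, members called stayed at 0, 0, 0 and 1 between genotypes and at 5, 4, 5 and 3 for the stage steps, these also with the block within each genotype. Joining stages by genotype and replicate number as a replicate block left 0 called averaged over stages (Syce1 0.44, limma adjusted p = 0.26).

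Values that changed sign, with each library left out in turn, ran in pachytene between the genotypes from -0.323 to 0.195 (Sycp2), -0.734 to 0.685 (Sycp3), -0.648 to 0.0337 (Syce2) and -1.18 to 0.59 (Tex12), and in meiosis II from -0.263 to 0.539 (Sycp1) and -0.0183 to 0.33 (Sycp3). Averaged over stages they ran from -0.127 to 0.346 (Sycp3), -0.309 to 0.000128 (Syce2) and -0.24 to 0.35 (Tex12). From diplotene to meiosis II they ran from -0.247 to 0.0345 for Syce1 in WT, and in Cxxc1-null cells from -0.757 to 0.0443 (Sycp1), -0.0719 to 0.0383 (Syce1) and -0.901 to 0.0263 (Syce2). Averaged over stages Tex12 had -0.0145 with a pseudocount of 5, and without WT pachytene replicate 2 and Cxxc1-null diplotene replicate 2 together Sycp3 had -0.109 and Tex12 -0.201.

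Scaling to a common median moved the median of all genes from 0.02 to -0.28 between diplotene and meiosis II in WT, and the averaged genotype calls from 1493 higher and 665 lower to 1223 and 857. Over the alternatives the genes called between genotypes ranged from 1 to 86 in pachytene (reported 46), 3 to 492 in diplotene (102) and 219 to 1813 in meiosis II (1358), 434 to 2695 averaged (2158), and 3 to 4649 for the first WT step (3431).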

Other observations

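The pseudogene Sycp1-ps1, related in sequence to Sycp1, was chosen after its values were seen, and its p-values do not allow for that choice. It had 0.791 and 0.802 FPKM in WT pachytene and 4.25 and 2.94 in Cxxc1-null pachytene, 2.77 and 1.93 in WT diplotene and 5.16 and 4.88 in Cxxc1-null diplotene, and 6.14 and 5.69 in WT meiosis II and 12.3 and 15.2 in Cxxc1-null meiosis II. The null libraries were higher without overlap at all 3 stages, as they were for 8.24% of tested genes. Both WT pachytene values lay under 1 FPKM. Averaged over stages Sycp1-ps1 rose by 1.09 ± 0.13 in Cxxc1-null cells (limma adjusted p = 0.00097), where 11.5% of all tested genes rose. At single stages the differences were 1.34 ± 0.23 in pachytene, 0.86 ± 0.23 in diplotene and 1.09 ± 0.23 in meiosis II (limma adjusted p = 0.047, 0.12 and 0.017). No label says how fragments were divided between Sycp1-ps1 and Sycp1. Syce1l, a gene related to Syce1, had -0.12 ± 0.17 averaged over stages (limma adjusted p = 0.68).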
